A study of Mus musculus with 8 samples.

Results

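Fkbp5, Tsc22d3, Zbtb16, Klf9, Sgk1, Dusp1, Zfp36, Anxa1, Cebpd and Hif3a are 10 genes widely used as a readout of the glucocorticoid receptor (GR). They were followed here in mouse epidermis after topical application of the glucocorticoid fluocinolone acetonide (FA). Members were the probes of the array annotation that carry 1 of these symbols, and 11 of 25697 probes did so, for 8 of the 10 genes. Of the 11 probes, 9 were detected (detection p under 0.05) on at least 2 of the 8 arrays and were tested, at least 1 for each of the 8 genes, among 13131 tested probes in all. Zbtb16 and Cebpd were not analysed here.

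RNA of epidermis was hybridized to 8 arrays of the type Illumina MouseRef-8 v2.0. Wild-type and REDD1 KO mice each gave 2 arrays after vehicle and 2 after FA, 4 groups in all. REDD1, encoded by Ddit4, is an inhibitor of mTOR signaling that is itself induced by glucocorticoids, and in the KO allele exon 2 is replaced by a cassette of LacZ and neo. The mice were 7-week-old females in telogen, FA was given at 2 µg per animal in acetone, and RNA was taken 24 h later. Controls received acetone alone, although the sample labels call them untreated. The study's methods describe the wild-type and KO mice as B6x129 and the treated skin as that of the back, whereas the labels give the strain as B6D2 and the tissue as epidermis of the posterior ear lobe. Each array was described as the RNA of 1 animal. With 2 animals per group, p-values rest on a spread estimated from few samples.

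GR is a nuclear receptor that waits in the cytoplasm on a scaffold of Hsp90 and its co-chaperones. Once it binds hormone it enters the nucleus and, as a dimer, activates genes through a palindromic DNA element, a step known as transactivation. It also represses inflammatory genes by interfering with NF-κB and AP-1. The members belong to the activated side: they are all activated by GR in many tissues. Several of them encode proteins that carry the anti-inflammatory action of GR. In skin, topical glucocorticoids are used against inflammation, and their long use thins the epidermis.

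The element consists of the 6 bases AGAACA, any 3 bases, and TGTTCT, the same arm on the other strand. RefSeq promoter windows (GRCm38.p6, 250 bases before to 50 after an annotated start) held 15 windows for the 8 genes with a probe. The full element occurred in 1 of the 15, at a start of Sgk1, with its first base at position -189 from that start. Of all 32851 windows of that length, 3 held it (0.00913%). A looser form, GNACA, 3 bases and TGTNC, was found in that window alone, against 0.475% of all windows. A single arm, on either strand, was present in 4 of the 15 windows, 3 of Sgk1 and 1 of Tsc22d3, and in 19.0% of all windows. The windows of Fkbp5, Klf9, Dusp1, Zfp36, Anxa1 and Hif3a held no arm, which says only that these letters are not in the windows. The 250 bases before the start are shown for 4 of the genes whose signals are described next, 2 with an arm and 2 without. Capitals mark the arms and, in the first sequence, the whole element.
Sgk1, chr10:21993640-21993889, plus strand: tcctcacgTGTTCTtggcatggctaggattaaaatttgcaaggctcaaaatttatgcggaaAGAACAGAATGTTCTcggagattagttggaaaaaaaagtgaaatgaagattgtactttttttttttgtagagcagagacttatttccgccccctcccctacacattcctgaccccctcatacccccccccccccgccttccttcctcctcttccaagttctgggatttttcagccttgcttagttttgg
Tsc22d3, chrX:140600523-140600772, minus strand: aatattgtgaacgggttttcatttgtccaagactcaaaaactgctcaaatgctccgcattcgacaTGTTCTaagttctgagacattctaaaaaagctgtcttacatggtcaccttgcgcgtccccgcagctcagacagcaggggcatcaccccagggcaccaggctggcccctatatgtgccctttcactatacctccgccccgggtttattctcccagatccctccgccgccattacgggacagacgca
Fkbp5, chr17:28486150-28486399, minus strand: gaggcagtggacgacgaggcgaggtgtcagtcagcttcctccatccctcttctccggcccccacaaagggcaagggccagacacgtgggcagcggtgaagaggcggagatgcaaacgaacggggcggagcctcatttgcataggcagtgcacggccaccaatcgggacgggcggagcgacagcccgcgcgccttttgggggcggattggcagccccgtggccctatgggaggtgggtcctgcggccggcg
Klf9, chr19:23140976-23141225, plus strand: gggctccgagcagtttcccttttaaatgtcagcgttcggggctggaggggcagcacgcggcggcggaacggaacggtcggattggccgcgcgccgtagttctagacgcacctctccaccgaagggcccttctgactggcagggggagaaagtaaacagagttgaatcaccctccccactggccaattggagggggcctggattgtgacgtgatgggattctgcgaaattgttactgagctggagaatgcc

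Before the members, the arrays themselves were compared. On each array 44.5% to 46.7% of the probes were detected, and replicate arrays of a group correlated at 0.976 to 0.990 over the tested probes. Ddit4 was below every wild-type array on every REDD1 KO array, with normalized log2 signals of 7.09 to 8.35 against 9.16 to 11.14, but whether the probe lies in the deleted exon is not given here. All 10 basal keratinocyte markers and 12 or 13 of the 13 tested markers of differentiating keratinocytes were detected on each array. The summed signal of 12 skeletal muscle genes was 30530 on REDD1 KO FA replicate 1, against 367 to 3404 on the other 7 arrays. The summed signal of 9 genes of Langerhans cells and antigen presentation was 10330 to 14000 on the 4 vehicle arrays and 2597 to 4148 on the 4 FA arrays, and that of 7 T cell genes was 844 to 1551 and 310 to 619. With FA, 4 of these 9 and 2 of these 7 genes were called lower in wild-type epidermis, where 3.17% of all tested probes were. In REDD1 KO epidermis 5 and 3 were, beside 2.34% of all. The 4 were Cd74, H2-Aa, H2-Ab1 and H2-Eb1, all of antigen presentation. The Langerhans cell gene Cd207 was called in REDD1 KO only (adjusted p = 0.027, wild type 0.0764, in limma). Cd86 differed by 0.46 and 0.30 and was not called. Of the differentiation markers, 3 were called higher in wild-type, and 1 higher and 2 lower in REDD1 KO epidermis. The part of these cells in the values of the members was not tested, and in bulk tissue fewer cells of a type and less RNA per cell cannot be told apart.

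FA raised some of the GR target genes in each genotype. In wild-type epidermis 3 of the 9 member probes were called higher (adjusted p under 0.05 in limma, two-sided), those of Fkbp5, Tsc22d3 (probe ILMN_2701664) and Dusp1, against 3.18% of all tested probes called higher. In REDD1 KO epidermis 2 of 9 were called higher, those of Klf9 and Sgk1, against 2.17% of all. No member was called lower. Both FA arrays lay above both vehicle arrays for 7 of 9 member probes in wild-type mice, where 25.0% of all tested probes did so, and for 6 of 9 in REDD1 KO mice, where 24.5% did. The median log2 difference of the 9 probes was 0.69 in wild-type and 0.71 in REDD1 KO epidermis, beside -0.02 and 0.00 over all tested probes. Averaged over both genotypes, 5 of 9 probes were called higher, those of Fkbp5, Tsc22d3 (ILMN_2701664), Klf9, Sgk1 and Zfp36, against 6.11% of all. With all 25697 probes in the fit, detected or not, these 3 counts were 0, 0 and 4. Of all 25697 probes, 269, 194 and 648 were then called higher. Which members were called also changed with the arrays in the fit. From the 4 REDD1 KO arrays alone, the calls of Klf9 and Sgk1 ended (adjusted p = 0.0557 and 0.0811) and Fkbp5 and Tsc22d3 ILMN_2701664 were called higher instead (adjusted p = 0.0129 and 0.0407). From the 4 wild-type arrays alone, the calls of Fkbp5 and Dusp1 ended (adjusted p = 0.0665 and 0.0702).

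**Figure D1:**
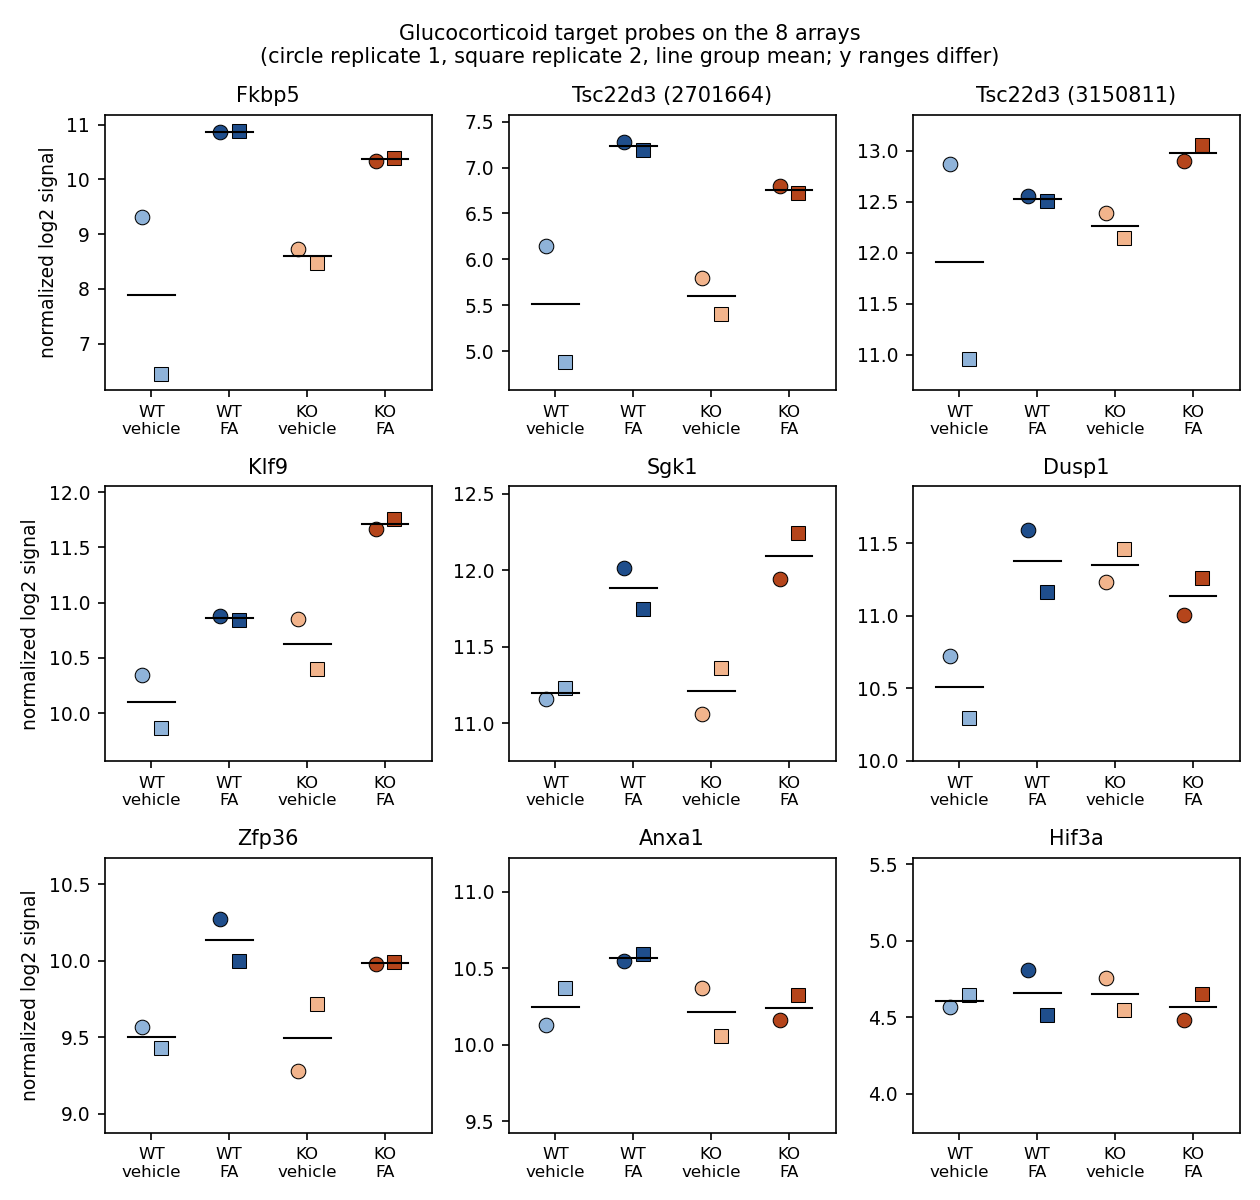
Normalized log2 signal (y axis, with a range of its own in each panel) of the 9 tested member probes in the 4 groups (x axis). Circles are replicate 1, squares replicate 2 and lines group means; wild-type vehicle replicate 2 is the lowest of all 8 arrays for Fkbp5, at 6.45, and for both Tsc22d3 probes, at 4.88 and 10.96.

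Fkbp5 (chr17:28398753-28486149, GRCm38.p6) encodes a co-chaperone of Hsp90 that lowers the affinity of GR for its hormone, so that its induction closes a feedback loop on the receptor. Its signal was 9.31 and 6.45 on the wild-type vehicle arrays, 10.86 and 10.88 on the wild-type FA arrays, 8.73 and 8.47 on the REDD1 KO vehicle arrays and 10.34 and 10.39 on the REDD1 KO FA arrays, all as normalized log2 signal. Every FA array was thus higher than every vehicle array, and within each group the replicates were close except in wild-type vehicle, where they were 2.85 apart. Fkbp5 rose by 2.99 ± 0.69 log2 units (SE, 95% CI 1.44 to 4.54, adjusted p = 0.0362) with FA in wild-type epidermis, a 7.96-fold difference of group means and the 9th highest among 13131 probes. In REDD1 KO epidermis the difference was 1.77 ± 0.69 (95% CI 0.21 to 3.32, adjusted p = 0.198). The test there borrowed the spread of the wild-type vehicle pair: with either array of that pair left out, the same difference of 1.77 had an adjusted p of 0.0019.

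The size of the wild-type response of Fkbp5 depended on which vehicle array served as baseline. It was 4.42 without vehicle replicate 1 (adjusted p = 0.000199) and 1.57 without vehicle replicate 2 (adjusted p = 0.0113). Against replicate 1 alone, the wild-type response was thus close to that of the REDD1 KO, and against replicate 2 alone it was larger. Averaged over genotypes, Fkbp5 rose by 2.38 ± 0.49 (adjusted p = 0.0131). Leaving out wild-type FA replicate 1 ended that call, with an adjusted p of 0.0533 at a difference of 2.38, and leaving out either wild-type FA array ended the wild-type call, with adjusted p of 0.181 and 0.164 at differences of 3.00 and 2.99. Either REDD1 KO vehicle array did so as well (adjusted p = 0.056), as did trended and robust moderation of the errors (adjusted p = 0.181, and 0.112 for the average).

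Tsc22d3 (chrX:140539528-140600522) encodes GILZ, a leucine zipper protein that binds NF-κB and AP-1 subunits and restrains both. The annotation ties its 2 probes to different RefSeq transcripts, and they gave different pictures. The signal of ILMN_2701664 was 6.15 and 4.88 in wild-type vehicle, 7.27 and 7.19 in wild-type FA, 5.80 and 5.40 in REDD1 KO vehicle, and 6.80 and 6.72 in REDD1 KO FA. As for Fkbp5, all 4 FA arrays were above all 4 vehicle arrays, and wild-type vehicle replicate 2 was the lowest of the 8. This probe rose by 1.72 ± 0.34 in wild-type epidermis (3.29-fold, adjusted p = 0.0222), and its difference in REDD1 KO epidermis was 1.16 ± 0.34 (2.24-fold, adjusted p = 0.101). The REDD1 KO value passed the test when either wild-type vehicle array was left out (adjusted p = 0.0114), and leaving out wild-type FA replicate 1 or 2 ended the wild-type call (adjusted p = 0.138 and 0.114). The wild-type difference was 2.36 without wild-type vehicle replicate 1 and 1.08 without replicate 2.

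The other Tsc22d3 probe, ILMN_3150811, had signals of 12.87 and 10.96 in wild-type vehicle, 12.55 and 12.50 in wild-type FA, 12.38 and 12.15 in REDD1 KO vehicle, and 12.89 and 13.05 in REDD1 KO FA. The wild-type FA arrays lay between the 2 vehicle arrays, while both REDD1 KO FA arrays lay above theirs. The differences were 0.62 ± 0.48 in wild-type (adjusted p = 0.494) and 0.71 ± 0.48 in REDD1 KO epidermis (adjusted p = 0.456). The wild-type difference was 1.57 without wild-type vehicle replicate 1 (adjusted p = 0.00714), and it turned to -0.34 without replicate 2 (adjusted p = 0.374). In REDD1 KO epidermis the difference passed the test with either wild-type vehicle array left out (adjusted p = 0.0471).

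Dusp1, Zfp36 and Anxa1 encode further proteins that curb inflammation: a phosphatase that inactivates MAP kinases, tristetraprolin, which destabilizes AU-rich cytokine mRNAs, and a phospholipid-binding protein that limits leukocyte recruitment. Dusp1 (chr17:26505591-26508472) had signals of 10.72 and 10.29 in wild-type vehicle, 11.59 and 11.16 in wild-type FA, 11.23 and 11.46 in REDD1 KO vehicle, and 11.01 and 11.26 in REDD1 KO FA. Only the wild-type vehicle arrays were low: the wild-type FA arrays and all 4 REDD1 KO arrays were above them. Dusp1 rose by 0.87 ± 0.22 with FA in wild-type epidermis (1.83-fold, adjusted p = 0.0475), and in REDD1 KO epidermis its difference was -0.21 ± 0.22 (95% CI -0.70 to 0.27, adjusted p = 0.633). The wild-type call was lost when any of the 4 wild-type arrays was left out (adjusted p = 0.0523 to 0.289), and also without a vehicle array of the REDD1 KO (adjusted p = 0.0663).

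Zfp36 (chr7:28376784-28379228) had signals of 9.57 and 9.43 in wild-type vehicle, 10.27 and 10.001 in wild-type FA, 9.28 and 9.72 in REDD1 KO vehicle, and 9.98 and 9.99 in REDD1 KO FA. All 4 FA arrays exceeded all 4 vehicle arrays, by a smaller margin than for Fkbp5. Averaged over genotypes Zfp36 rose by 0.56 ± 0.13 (1.48-fold, adjusted p = 0.0253), while neither genotype alone passed the test, with 0.64 ± 0.19 in wild-type (adjusted p = 0.0826) and 0.49 ± 0.19 in REDD1 KO epidermis (adjusted p = 0.199). The averaged call ended when replicate 1 of wild-type FA or of REDD1 KO vehicle, replicate 2 of wild-type vehicle or any REDD1 KO FA array was left out, with adjusted p between 0.0541 and 0.105.

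Anxa1 (chr19:20373434-20390671) did not pass the test anywhere. Its signals were 10.13 and 10.37 in wild-type vehicle, 10.55 and 10.59 in wild-type FA, 10.37 and 10.06 in REDD1 KO vehicle, and 10.16 and 10.32 in REDD1 KO FA. The wild-type FA pair was the highest of the 8 arrays, and the other 6 arrays overlapped. The FA difference was 0.32 ± 0.17 in wild-type (95% CI -0.07 to 0.71, adjusted p = 0.316) and 0.03 ± 0.17 in REDD1 KO epidermis (95% CI -0.36 to 0.42, adjusted p = 0.952).

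Sgk1 (chr10:21882184-21999903), the gene with the full element before a start, encodes a kinase named for its induction by serum and glucocorticoids that regulates ion channels and transporters. Its signals were 11.16 and 11.23 in wild-type vehicle, 12.02 and 11.75 in wild-type FA, 11.06 and 11.36 in REDD1 KO vehicle, and 11.94 and 12.24 in REDD1 KO FA. The 4 FA arrays lay above the 4 vehicle arrays, and Sgk1 was the member with the smallest distance between the wild-type vehicle replicates, 0.07 in favor of replicate 2. Sgk1 rose by 0.88 ± 0.18 in REDD1 KO epidermis (1.84-fold, adjusted p = 0.0311) and by 0.78 ± 0.13 averaged over genotypes (adjusted p = 0.00553). The wild-type difference was 0.69 ± 0.18 (1.61-fold, adjusted p = 0.0614). It was called in limma with no background correction, an offset of 50, only probes detected on all 8 arrays, or trended and robust moderation. Adjusted p was then 0.0153 to 0.0471. The REDD1 KO call was lost without any 1 of the 4 REDD1 KO arrays (adjusted p = 0.05 to 0.176, the lowest just above the threshold) or of the wild-type FA arrays (adjusted p = 0.0544), whereas the averaged call held without any 1 array.

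Klf9 (chr19:23141226-23168129) encodes a zinc finger transcription factor that slows keratinocyte proliferation. It had signals of 10.34 and 9.86 in wild-type vehicle, 10.88 and 10.84 in wild-type FA, 10.86 and 10.40 in REDD1 KO vehicle, and 11.66 and 11.75 in REDD1 KO FA. The REDD1 KO FA pair stood above all other arrays, and REDD1 KO vehicle replicate 1 reached the level of the wild-type FA arrays. Klf9 rose by 1.08 ± 0.21 with FA in REDD1 KO epidermis (2.12-fold, adjusted p = 0.024) and by 0.92 ± 0.15 averaged over genotypes (adjusted p = 0.00488), and its wild-type difference was 0.76 ± 0.21 (1.69-fold, adjusted p = 0.0681). The call in REDD1 KO ended when REDD1 KO vehicle replicate 2 or any FA array was left out, with adjusted p between 0.0529 and 0.162. The averaged call held without any 1 array.

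Hif3a (chr7:17030993-17062427), a member of the hypoxia-inducible factor family, was at background. ILMN_1247370 was detected on 2 of 8 arrays, wild-type FA replicate 1 and REDD1 KO vehicle replicate 1, with signals of 4.81 and 4.76, and its other 6 values were 4.48 to 4.65. The groups overlapped, and the FA difference was 0.06 ± 0.17 in wild-type and -0.08 ± 0.17 in REDD1 KO epidermis. The remaining Hif3a probes, ILMN_2760494 and ILMN_2776361, were detected on 0 arrays and were not tested. A change of Hif3a below the detection limit of these probes could not have been seen.

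**Figure D2:**
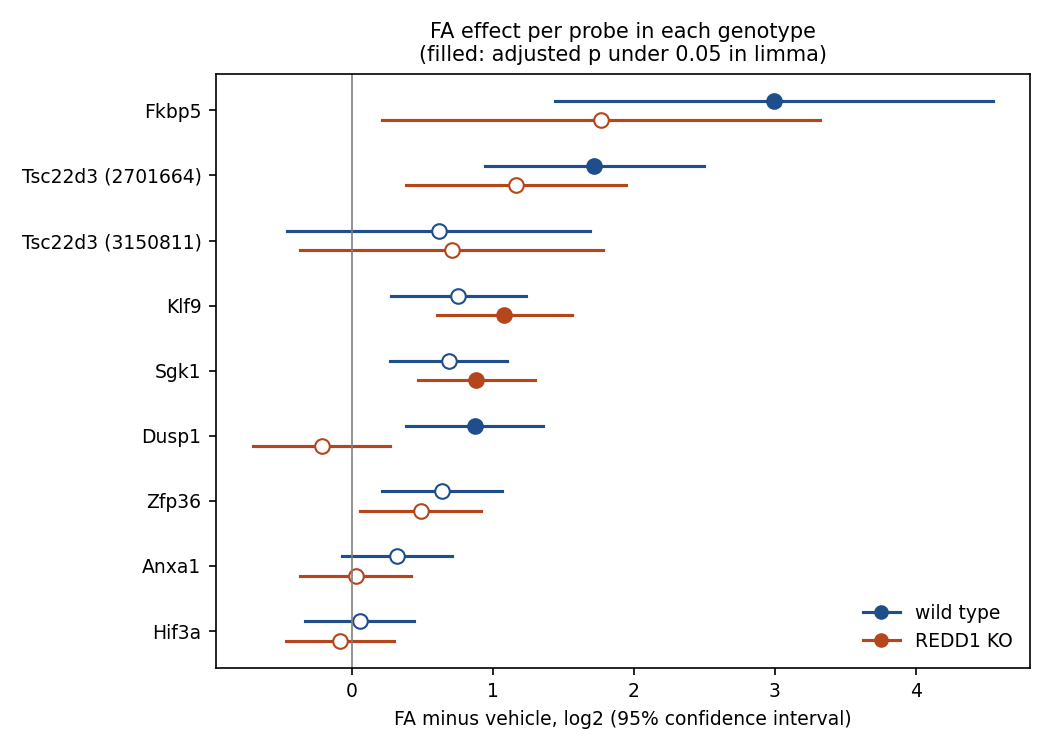
FA minus vehicle on the log2 scale (x axis) for the 9 member probes (y axis), with 95% confidence intervals from limma, in wild-type (blue) and REDD1 KO epidermis (orange); filled points have an adjusted p under 0.05. The intervals of Fkbp5 are the widest (1.44 to 4.54 in wild type, 0.21 to 3.32 in REDD1 KO), and Dusp1 is the probe with points on opposite sides of 0 that passed the test in 1 genotype.

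Whether REDD1 shaped these responses was asked by testing the REDD1 KO response against the wild-type response. None of the 9 probes was called in limma (1 at an unadjusted p under 0.05), against 0.0305% of all tested probes called in either direction. The probe past the unadjusted threshold was that of Dusp1, with a difference of -1.08 ± 0.30 (95% CI -1.77 to -0.40, adjusted p = 0.359 in limma), REDD1 KO minus wild type. For Fkbp5 the difference was -1.23 ± 0.97 (95% CI -3.42 to 0.97, adjusted p = 0.705). It was -2.65 without wild-type vehicle replicate 1, which passed the test (adjusted p = 0.0361), and 0.20 without replicate 2 (adjusted p = 0.795). The remaining differences, for Tsc22d3, Klf9, Sgk1, Zfp36, Anxa1 and Hif3a, lay between -0.56 and 0.32, with the widest interval, -1.43 to 1.61, for Tsc22d3 ILMN_3150811. Intervals of this width leave room for effects of either sign. The study itself listed Fkbp5 among genes activated differently in the genotypes. It reported that Q-PCR of the listed genes correlated closely with the arrays, and those Q-PCR values were not re-examined here.

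Under vehicle, no member was called between the genotypes in limma (2 of 9 at an unadjusted p under 0.05), and 0.510% of all tested probes were called. The 2 were Dusp1, 0.84 ± 0.22 higher in REDD1 KO (1.79-fold, adjusted p = 0.236), and Klf9, 0.52 ± 0.21 higher (1.44-fold, adjusted p = 0.529). For both genes, both REDD1 KO vehicle arrays lay above both wild-type vehicle arrays. How many of all tested probes do so was not computed, so this adds no evidence to the uncalled differences. Fkbp5 was 0.72 ± 0.69 higher in REDD1 KO (adjusted p = 0.852), but this too turned on the wild-type pair: it was 2.15 without wild-type vehicle replicate 1 (adjusted p = 0.00598) and -0.71 without replicate 2 (adjusted p = 0.366).

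Under FA, 1 of 9 probes was called between the genotypes, where 7.16% of all tested probes were. Klf9 was 0.85 ± 0.21 higher in REDD1 KO FA than in wild-type FA (1.80-fold, adjusted p = 0.046), a call that was lost without any 1 of the 4 FA arrays (adjusted p = 0.0987 to 0.206). Fkbp5, Tsc22d3 ILMN_2701664, Anxa1 and Zfp36 had lower signals on both REDD1 KO FA arrays than on both wild-type FA arrays, though none was called. For Zfp36 the nearest arrays were 9.99 and 10.001. The share of all tested probes that separate in this way was not computed, so the separation is a description only. Their differences were -0.51 ± 0.69 (adjusted p = 0.694), -0.47 ± 0.34 (adjusted p = 0.435), -0.33 ± 0.17 (adjusted p = 0.28) and -0.15 ± 0.19 (adjusted p = 0.663). The other Tsc22d3 probe, ILMN_3150811, was on the opposite side, with both REDD1 KO FA arrays above both wild-type FA arrays and a difference of 0.44 ± 0.48 (adjusted p = 0.606).

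The distance between the wild-type vehicle arrays was therefore examined for each member. Replicate 1 was higher than replicate 2 by 2.85 for Fkbp5, by 1.91 for Tsc22d3 ILMN_3150811 and by 1.27 for Tsc22d3 ILMN_2701664. These distances ranked 4, 18 and 117 among the 13131 tested probes, of which 237 (1.80%) were more than 1 apart. Dusp1, Klf9 and Zfp36 were also higher on replicate 1, by 0.42, 0.48 and 0.14, and Sgk1, Anxa1 and Hif3a were lower, by at most 0.24. In the other 3 groups no member probe was more than 0.46 apart. A distance this large was thus seen in these 3 probes and in 1 of the 4 groups.

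**Figure D3:**
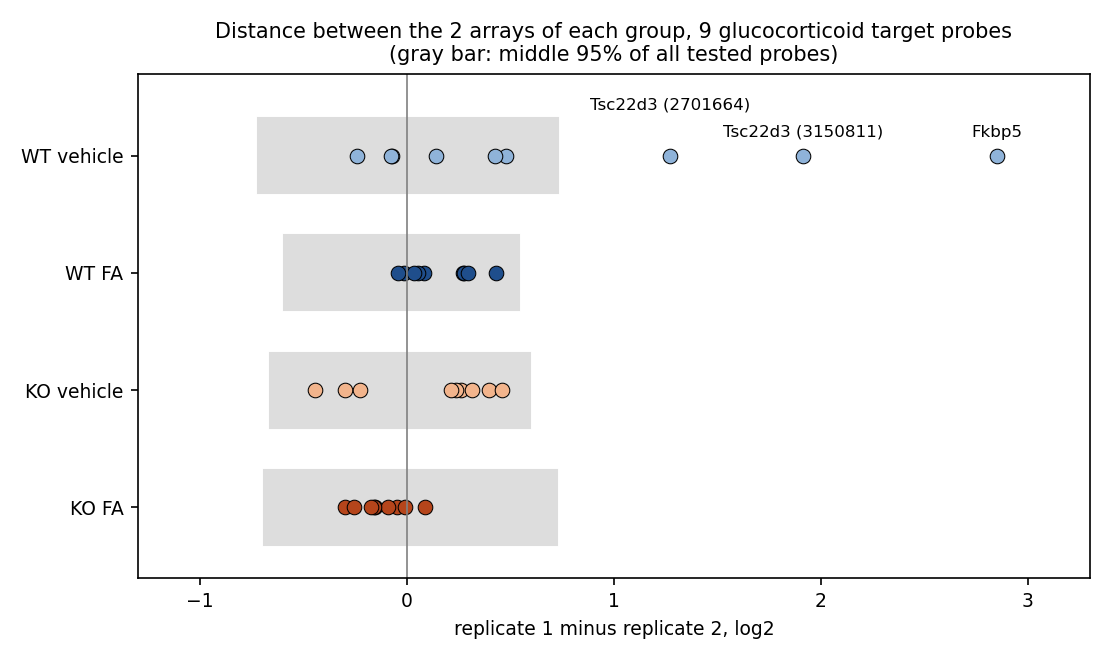
Replicate 1 minus replicate 2 on the log2 scale (x axis) for the 9 member probes in each of the 4 groups (y axis); gray bars span the middle 95% of all tested probes. Fkbp5 (2.85) and the Tsc22d3 probes (1.91 and 1.27) lie outside the bar of wild-type vehicle, -0.72 to 0.73, and all other points lie inside their bars.

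Other genes known to respond to glucocorticoids showed the same inequality between the wild-type vehicle arrays. Of 30 further tested targets, 22 were higher on replicate 1, with a median distance of 0.41, beside 6521 of 13131 probes and a median of 0.00 overall. Angptl4 was 2.44 higher on replicate 1 and Pdk4 1.82 higher. It was not limited to these lists: 10 of 12 immediate early genes (median 0.63), 8 of 9 Langerhans cell genes (0.50), 6 of 7 T cell genes (0.48) and 8 of 8 sebaceous genes (0.52) were higher on replicate 1, while 9 of 13 differentiation markers and 8 of 10 basal markers were higher on replicate 2. The part of these differences in the member values was not tested.

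With FA, the differences of the further targets were above 0 for 28 of 30 in wild-type and for 29 of 30 in REDD1 KO epidermis. Of the 30, 15 were called higher and 0 lower in wild-type epidermis (median log2 difference 1.04), where 3.18% of all tested probes were called higher. In REDD1 KO epidermis 9 were called higher and 0 lower (median 0.94), beside 2.17% of all called higher. The medians over all tested probes were -0.017 and -0.001. Without wild-type vehicle replicate 2 the first count was 4, while the count over all probes called higher went from 417 to 215. Without replicate 1 it was 16. Without REDD1 KO FA replicate 1 the REDD1 KO count fell, and so did the count over all probes called higher. The list was drawn up with earlier results of these data known, and Ddit4, the deleted gene, is in it.

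The largest called changes in it were those of Gadd45g, Angptl4, Lcn2 and Pdk4. Gadd45g, a growth arrest gene, rose by 3.13 in REDD1 KO (adjusted p = 0.00626) and by 2.10 in wild-type epidermis (adjusted p = 0.0273). Angptl4, an inhibitor of lipoprotein lipase, rose by 2.97 in wild-type (adjusted p = 0.0346), with a difference of 1.11 in REDD1 KO (adjusted p = 0.4). Lcn2, a siderophore-binding lipocalin, rose by 2.77 in wild-type (adjusted p = 0.00549), with 0.40 in REDD1 KO (adjusted p = 0.607). Both genotypes called Pdk4, a kinase that shuts off pyruvate dehydrogenase, at 2.25 (adjusted p = 0.0358) and 2.71 (adjusted p = 0.0213). The wild-type values of 3 of these genes depended on the vehicle arrays. Without wild-type vehicle replicate 2 the differences of Angptl4, Pdk4 and Gadd45g were 1.75, 1.34 and 1.33 and their calls ended (adjusted p = 0.0819, 0.0986 and 0.076), and without replicate 1 they were 4.19, 3.16 and 2.86. Leaving out an FA array of the wild type ended these calls too, with adjusted p between 0.104 and 0.194, and the call of Pdk4 in REDD1 KO ended without any 1 of the 4 REDD1 KO arrays (adjusted p = 0.0555 to 0.124). The calls of Lcn2 in wild-type and of Gadd45g in REDD1 KO held without any 1 array. The responses of the genotypes were not called different for any of these 4, with adjusted p of 0.33 to 0.863. Between the FA groups themselves, Lcn2 was called in limma, with REDD1 KO minus wild type at -2.27 (adjusted p = 0.0119). Gadd45g, Angptl4 and Pdk4 were not called there (adjusted p = 0.259 to 0.86). How this call of Lcn2 holds without single arrays is not given here.

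**Figure D4:**
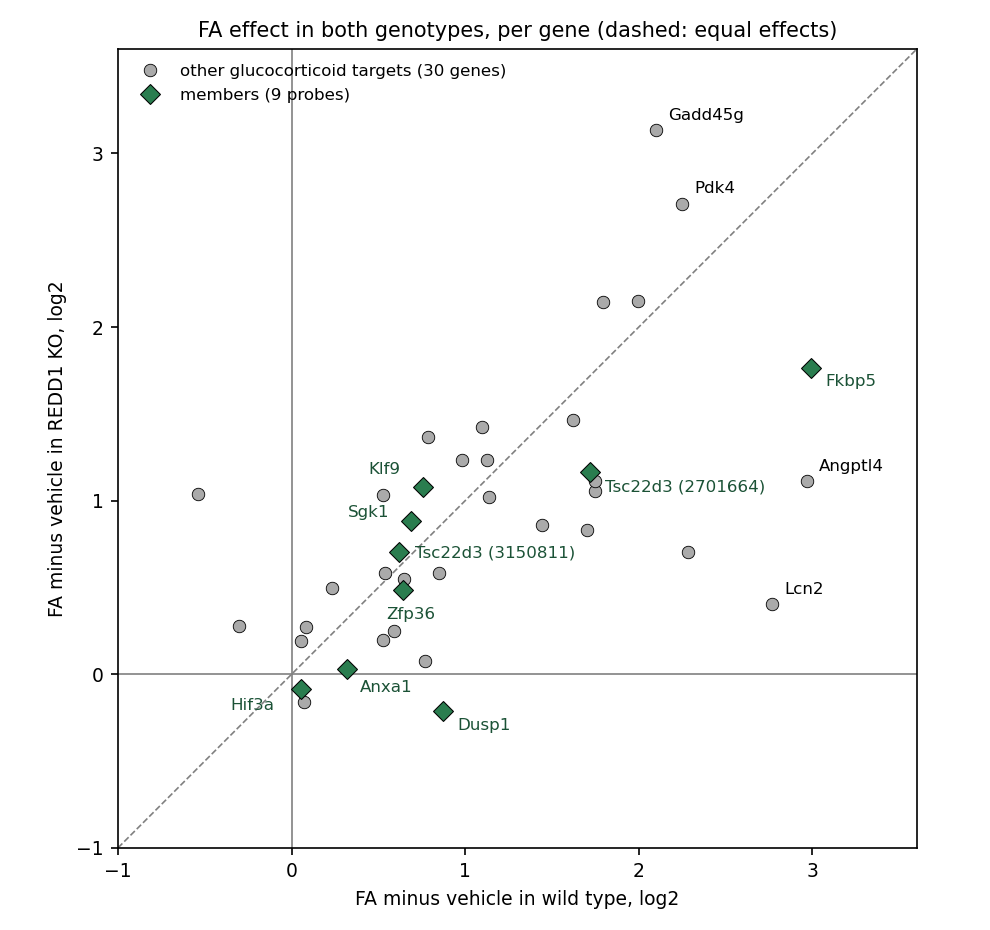
FA minus vehicle in wild-type (x axis) and REDD1 KO epidermis (y axis), both log2, for the 9 member probes (green diamonds) and 30 other glucocorticoid targets (gray circles); the dashed line marks equal effects. Fkbp5 (2.99 and 1.77), Dusp1 (0.87 and -0.21) and Lcn2 (2.77 and 0.40) lie below the line, and Klf9 (0.76 and 1.08) lies above it.

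The array signal of the receptor gene was near background. The study's own Q-PCR and Western blots found GR in the epidermis of both genotypes, at similar levels. Nr3c1, which encodes GR, was detected on 3 of 8 arrays, and its FA difference was -0.19 in wild-type (adjusted p = 0.717) and -0.37 in REDD1 KO epidermis (adjusted p = 0.462). Of 15 tested genes of the GR machinery, 0 were called in wild-type epidermis in limma (2 at an unadjusted p under 0.05) and 1 lower in REDD1 KO epidermis, where 2.34% of all probes were called lower. That gene was Fkbp4, the co-chaperone that opposes Fkbp5 by helping GR move to the nucleus. Averaged over genotypes, Fkbp4 was called lower in limma, with a difference of -0.72 (adjusted p = 0.00668). Between the FA groups, REDD1 KO minus wild type was -0.76 (adjusted p = 0.0382). How these 2 calls hold without single arrays is not given here. It fell by 0.90 in REDD1 KO (adjusted p = 0.0257), a call lost without any 1 of the REDD1 KO or wild-type FA arrays (adjusted p = 0.053 to 0.148), and its wild-type difference was -0.55 (adjusted p = 0.105).

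Of 33 tested paralogs of the members, 4 were called higher and 1 lower in wild-type epidermis, where 3.18% of all probes were called higher and 3.17% lower. In REDD1 KO epidermis 3 were called higher and 1 lower, beside 2.17% and 2.34% of all. The 1 called lower there was Fkbp4, already counted in the GR machinery. The medians of the 33 paralogs were 0.12 and 0.15. Anxa3 rose by 1.40 in REDD1 KO (adjusted p = 0.00932) and by 1.06 in wild-type (adjusted p = 0.0252), and Dusp14, a small dual specificity phosphatase, rose by 0.98 in wild-type (adjusted p = 0.0115) and by 0.85 in REDD1 KO (adjusted p = 0.0228). Klf13 rose by 1.27 in wild-type (adjusted p = 0.0144), with 0.66 in REDD1 KO (adjusted p = 0.152). Each of these wild-type calls was lost without either wild-type FA array and without 1 of the wild-type vehicle arrays, replicate 1 for Dusp14 and replicate 2 for Anxa3 and Klf13 (adjusted p = 0.0506 to 0.181). In REDD1 KO the call of Anxa3 was lost without vehicle replicate 1 (adjusted p = 0.0684) and that of Dusp14 without any 1 of the 4 REDD1 KO arrays (adjusted p = 0.0599 to 0.14). The immediate early genes, whose products include AP-1, had 0 of 12 called in either genotype in limma (3 in the wild type and 1 in the REDD1 KO at an unadjusted p under 0.05), with medians of 0.43 and 0.04. Of 12 clock genes, several of which carry GR elements, 3 were called lower in wild-type epidermis, where 3.17% of all probes were, and 0 in either direction in REDD1 KO in limma (at an unadjusted p under 0.05, 4 were higher and 2 lower). Dbp and Tef, PAR bZIP factors of the clock output, fell by 1.58 (adjusted p = 0.00194) and by 1.53 (adjusted p = 0.00487) in wild-type epidermis. Their REDD1 KO differences were -0.48 (adjusted p = 0.13) and -0.60 (adjusted p = 0.145), and the responses of the genotypes were not called different (adjusted p = 0.308 and 0.384). Between the FA groups, both were called higher in REDD1 KO than in wild type in limma. The differences were 1.15 for Dbp (adjusted p = 0.00595) and 1.00 for Tef (adjusted p = 0.0237), and how they hold without single arrays is not given here. Per3, detected on 2 arrays, fell by 0.71 in wild-type epidermis (adjusted p = 0.0414), a call that ended without any 1 of the 8 arrays (adjusted p = 0.0504 to 0.255).

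Members were also compared with each other and with all tested probes by their pattern over the 8 arrays, as a description, since arrays of a group share their treatment. Fkbp5 and Tsc22d3 ILMN_2701664 followed each other most closely (Pearson r = 0.98), and Sgk1 and Zfp36 came next (r = 0.90). Dusp1 reached at most 0.65, with Fkbp5, Anxa1 at most 0.47 and Hif3a at most 0.46. The probes of other genes most like Fkbp5 were those of Clock, Tsc22d3 and the amino acid transporter gene Slc7a5 (r = 0.97 to 0.98). For Tsc22d3 ILMN_2701664 they were Klf13, Mknk2 and Slc7a5 (0.98 each), for Klf9 Peli2, Synm and Trnp1 (0.98 each), for Sgk1 Bmp1, Tjap1 and Ifrd1 (0.97 to 0.98), and for Zfp36 Ubxn6, Slc39a8 and Mrps5 (0.96 to 0.97).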

How the data were processed

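Epidermal RNA of 8 animals was measured on 8 arrays. The authors deposited bead signal intensities without background subtraction or normalization, each with a detection p-value, and log2 values made with neqc in limma (background correction from negative controls, an offset, quantile normalization; no version stated). The deposited log2 values were used; an own run of neqc gave the same to within 5e-09. Because of the offset of 16, folds of dim probes are understated. Symbols came from the platform annotation, updated through RefSeq gene tables (GRCm38.p6).

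Probes with detection p under 0.05 on at least 2 of 8 arrays were tested in limma 3.58.1 (R 4.3.3) with 1 mean per group over all 8 arrays, moderated errors (4 residual and 5.08 prior degrees of freedom), two-sided p-values and Benjamini-Hochberg adjustment over 13131 probes. The script was tested on simulated data. Values after ± are standard errors. The median intensity was 95.9 to 106.9 and the mean of negative controls 90.5 to 99.3, so dim probes such as Hif3a have little precision.

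The members, gene lists and tests were chosen with earlier results of these data known. All members were named by every probe, together with the 3 probes most like each member called in the averaged FA effect, Nr3c1, Ddit4 and up to 4 called genes per list with the largest FA change in either genotype. A listed gene stands by its brightest tested probe. Some genes, among them Fkbp4, Cebpb, Per1 and Nr1d1, are in more than 1 list and count in each. Alternatives were rebuilt values, uncorrected background, median centring, an offset of 50, other probe filters, the 4 arrays of a comparison, the replicate number as a block, trended and robust moderation, array weights and leaving out each array; counts of other targets and the named genes of the lists without single arrays were added after the data were seen. Lists of basal keratinocyte, muscle, fibroblast, adipocyte, hair follicle, melanocyte and endothelial markers had 0 genes called in limma with FA in either genotype (at an unadjusted p under 0.05, 3 basal and 1 hair follicle gene in wild-type and 1 and 2 in REDD1 KO epidermis). Of sebaceous genes, 1 of 8 was called higher in wild-type and 1 lower in REDD1 KO epidermis. Plots were made in Python 3.11.15 with matplotlib 3.10.9.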

Additional observations from a re-analysis of the deposited data

How the results depend on the processing

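The count of member probes called was 3 with FA in wild-type epidermis, and it was 0 without a probe filter, 5 with trended and robust moderation, 1 with only the 4 wild-type arrays and 0 to 3 without 1 array. In REDD1 KO epidermis the count was 2, with 0 when no probe filter was applied and 0 to 5 without 1 array. With only the 4 REDD1 KO arrays it was again 2, but of Fkbp5 and Tsc22d3 ILMN_2701664 and no longer of Klf9 and Sgk1. Averaged over genotypes it was 5 (3 to 6 without 1 array), under FA between genotypes 1 (0 with no probe filter, 0 to 1 without 1 array), and 0 both under vehicle and between the FA effects of the genotypes (0 to 1 without 1 array). The calls over all probes shifted in these settings too. In wild-type epidermis 417 of 13131 probes were called higher, and 269 of 25697 without a probe filter. With trended and robust moderation 534 were, and with only the 4 wild-type arrays 377. In REDD1 KO epidermis 285 were called higher, 194 without a probe filter and 160 with only the 4 REDD1 KO arrays. With no filter the adjustment runs over more probes, and without 1 array fewer samples enter. The cause of the other shifts was not tested. Without 1 array, its partner is assumed to vary like the other groups.

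Some differences turned sign when 1 array was left out. For the FA effect in wild type these were Tsc22d3 ILMN_3150811 (-0.34 to 1.57) and Hif3a (-0.093 to 0.20), in REDD1 KO Anxa1 (-0.13 to 0.19) and Hif3a (-0.19 to 0.021), and averaged Hif3a (-0.089 to 0.059). Between genotypes under vehicle they were Fkbp5 (-0.71 to 2.15), Tsc22d3 ILMN_3150811 (-0.60 to 1.31) and ILMN_2701664 (-0.55 to 0.72), Zfp36 (-0.22 to 0.22), Sgk1 (-0.14 to 0.16), Anxa1 (-0.19 to 0.12) and Hif3a (-0.058 to 0.15), and under FA Hif3a (-0.24 to 0.056). For the difference of the FA effect they were Fkbp5 (-2.65 to 0.20), Tsc22d3 ILMN_3150811 (-0.87 to 1.05) and ILMN_2701664 (-1.19 to 0.079), Zfp36 (-0.37 to 0.070) and Hif3a (-0.29 to 0.0078). Median centring turned Hif3a in REDD1 KO (0.086) and averaged (0.12), and Anxa1 (0.047) and Zfp36 (0.070) under vehicle, and no background correction turned Zfp36 under vehicle (6e-04). None of these had passed the test.

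The sample labels do not say what equal replicate numbers mark, and the main fit did not pair the samples. Whether the numbers mark pairs could not be decided, because each pair of groups shares only 2 numbers. Deviations of same-numbered arrays correlated at -0.11 to -0.03 where wild-type vehicle was in the pair of groups. In all other pairs of groups they correlated at 0.215 to 0.252. With the replicate number as a block, 2 member probes were called in wild-type epidermis in place of 3, Dusp1 having an adjusted p of 0.0618, and no other member call changed. A chip block was not run, since the headers name no chip. The count of other targets called higher in wild type went from 15 to 4 without wild-type vehicle replicate 2, as given in the report.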
